A study of Capra hircus with 27 samples.

Results

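The goat homolog of PDK4 (pyruvate dehydrogenase kinase 4) was described in heart, lung and skeletal muscle of goats from 3 altitudes. It was far lower in both populations above 600 m than in the 600 m population, in all 3 tissues. In heart its mean level was 1203 ± 424 FPKM (SD, n = 3) at 600 m, 152 ± 64.0 at 2000 m (n = 3) and 66.8 ± 12.6 at 3000 m (n = 3). The gene is 1 row, GOAT_ENSP00000005178, of the 22131 genes in the expression table. The name PDK4 rests on the human protein ID that is part of the row's name, since the table pairs no ID with a symbol. The row was chosen by its measured FPKM: earlier results of these data had shown its low level above 600 m. Every comparison with 600 m below is therefore a description, with no test. FPKM is the number of fragments per kilobase of transcript, scaled to the mapped fragments of its library. It is thus per length, while a comparison between tissues also depends on the scaling, since 10 genes alone made up 10.3% to 41.5% of a library's summed FPKM.

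PDK4 is a kinase of the mitochondrial matrix. It phosphorylates and inactivates the pyruvate dehydrogenase complex, which turns pyruvate into acetyl-CoA, and so shifts a cell from the oxidation of glucose towards that of fatty acids. In heart and skeletal muscle of mammals its transcript is known to rise with fasting, through fatty acid-activated PPAR receptors, glucocorticoids and FOXO factors, and to decline with feeding and insulin. Neither the feeding state of the animals nor the time of day of sampling is given in the labels. The study's ethics statement says that its animals could eat and drink freely under normal conditions. It does not state when they last ate before sampling. The goats from the middle altitude were not part of that study, so the statement may not cover them.

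The data comprised 27 RNA-seq libraries of *Capra hircus*, with 3 libraries for each of the 9 combinations of tissue and altitude. The animals came from indigenous populations of Ya'an (600 m), Zhaotong (2000 m) and A'ba (3000 m) and were about 3 years old. The labels name no treatment, and the study's methods describe the 600 m and 3000 m animals as unrelated females. Altitude, place and population coincide and cannot be told apart, and in whole tissue fewer cells of a type and less RNA per cell cannot be told apart either. By the study's methods, the tissues of a population at 600 m and 3000 m came from the same females, so the tissue contrasts there compare libraries that share animals. The labels do not say whether libraries with the same number came from the same animal. The p-values rest on the spread between libraries within groups, pooled over all groups of a fit.

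Of the 27 libraries, 27 had a library of the same tissue as their nearest neighbour by Pearson's r over 13699 genes. The lowest r within a tissue was 0.896 and the highest between tissues 0.862. Marker genes of the tissues could not be looked up without symbols. FPKM alone leaves the depth of a library unknown. Relative depth, estimated from the value of 1 read in low genes, ran from 0.808 to 1.27. The fit behind this estimate kept 305 of 351 library pairs (86.9%) and left out those far from it. Muscle replicates 1 and 2 at 600 m differed by little more than sampling noise for the median of 99 genes. Estimated from the median, their variance was 1.24 times that of random sampling, against 3.09 to 17.3 times in the other 26 replicate pairs. By the mean over genes it was 1.92 times, against 7.84 to 54.6 times. These 2 replicates were averaged and counted as 1 sample, which leaves 26 samples. The 600 m libraries also stood apart in how their low values lined up. The share of low genes whose ratio between libraries of a tissue fell on the common value of 1 read averaged 30.8% to 38.1% within 600 m, 15.4% to 36.2% within the other altitudes, 20.03% to 29.5% between 2000 m and 3000 m and 7.91% to 15.2% between 600 m and the higher altitudes. The part of this difference in the results below was not tested.

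In skeletal muscle at 600 m the PDK4 homolog stood at 3062, 2978 and 2767 FPKM in replicates 1 to 3. At 2000 m it stood at 403, 172 and 249 FPKM, and at 3000 m at 279, 426 and 43.8 FPKM. All 600 m libraries lay above all others, the lowest of them 6.49 times the highest library above 600 m. The mean was 2894 ± 179 FPKM (SD, n = 2) at 600 m, 275 ± 118 at 2000 m (n = 3) and 249.8 ± 193 at 3000 m (n = 3). The 2000 m and 3000 m libraries overlapped. Replicate 3 at 3000 m was lower than every other muscle library.

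In heart the PDK4 homolog stood at 769, 1616 and 1222 FPKM at 600 m. At 2000 m the values were 225, 122 and 107 FPKM, and at 3000 m they were 72.1, 75.9 and 52.4 FPKM. The 3 altitudes did not overlap in heart. The lowest 600 m library was 3.42 times the highest library above 600 m.

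In lung the PDK4 homolog stood at 294, 398 and 305 FPKM at 600 m. At 2000 m the values were 35.4, 62.2 and 72.7 FPKM, and at 3000 m they were 32.1, 49.7 and 33.6 FPKM. The 600 m libraries lay above all others, the lowest of them 4.04 times the highest library above 600 m, and 2000 m and 3000 m overlapped. The mean was 332 ± 57.1 FPKM (SD, n = 3) at 600 m, 56.8 ± 19.2 at 2000 m (n = 3) and 38.5 ± 9.77 at 3000 m (n = 3).

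**Figure D1:**
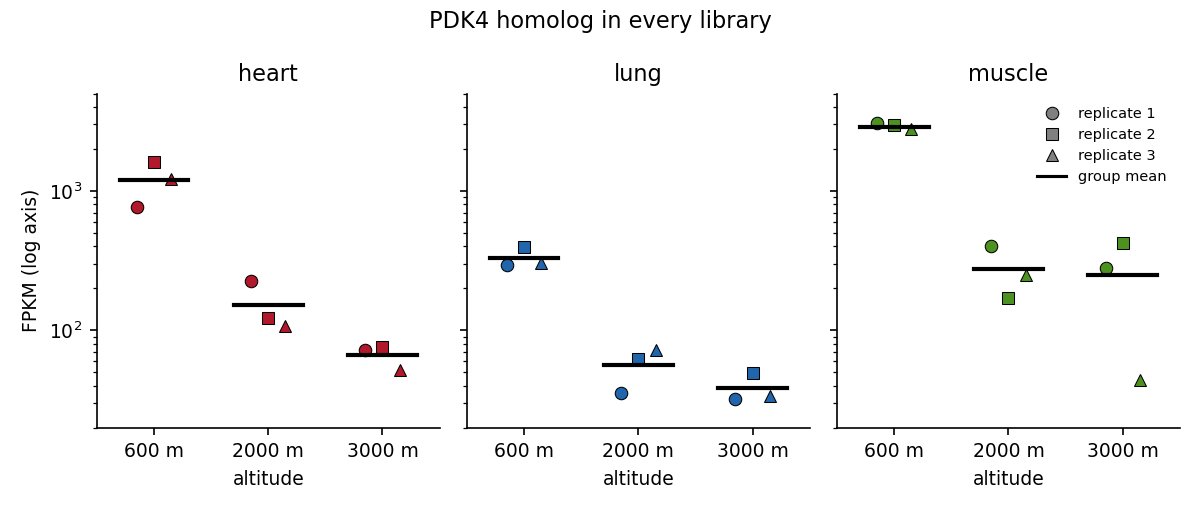
FPKM of the PDK4 homolog (log axis) in each of the 27 libraries by tissue and altitude, with a line at the group mean; muscle replicates 1 and 2 at 600 m are drawn apart and enter the mean as 1 sample. In each tissue the 600 m libraries lie above all others, and replicate 3 of muscle at 3000 m (43.8 FPKM) lies below the other muscle libraries.

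The level at 2000 m was 12.6% of the 600 m mean in heart, 17.1% in lung and 9.50% in muscle. At 3000 m it was 5.55%, 11.6% and 8.63% in the same order. As ratios, the 600 m mean was 18.0 times the 3000 m mean in heart, 8.63 times in lung and 11.6 times in muscle.

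Groups that part in this way are common in these data. Over all genes tested, every sample above 600 m lay below every 600 m sample for 7.42% of genes in heart, 13.7% in lung and 16.6% in muscle. The lack of overlap is thus no particular trait of the PDK4 homolog, and the size of its difference is described below.

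Ranked by FPKM among the 22131 genes, the PDK4 homolog was 24th to 26th in the muscle libraries at 600 m. It ranked 71st to 156th in heart at 600 m and 211th to 287th in lung at 600 m. Above 600 m its rank lay between 206 and 1475 in muscle, 373 and 1424 in heart and 1176 and 2468 in lung. In muscle at 600 m this single gene held 0.354% to 0.409% of the summed FPKM of a library, and above 600 m it held 0.00617% to 0.0649%.

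On the scale of log2(FPKM + 1), the change against 600 m in heart was -2.99 at 2000 m and -4.10 at 3000 m (SE 0.33 each). In lung the log2 changes were -2.58 and -3.09 (SE 0.28). In muscle they were -3.48 and -4.05 (SE 0.79). Without muscle replicate 3 at 3000 m, the muscle change at 3000 m was -3.06. The median change over all genes tested lay between -0.12 and 0.13 in these 6 comparisons, which share the 600 m samples within a tissue.

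Changes of this size were rare. A log2 change of -2 or lower was found in 0.138% of the genes tested at 2000 m and 0.243% at 3000 m in heart, in 0.351% and 0.451% in lung, and in 1.12% and 0.923% in muscle. In heart, 3 of 12363 genes had a lower log2 change than the PDK4 homolog at 2000 m and 2 at 3000 m. In lung, 16 and 14 of 13965 genes had a lower change. In muscle, 16 and 7 of 11920 genes did. With 0.1 in place of the 1 added to FPKM before the log, more genes lay below it. At 2000 m and 3000 m its change was then the 9th and 8th lowest in heart. It was the 45th and 31st lowest in lung and the 34th and 25th lowest in muscle.

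On the scale of log2(FPKM + 1), the genes with a still lower change were mostly expressed at lower levels. In heart and muscle none of them had a mean level as high as the PDK4 homolog, whose mean log2(FPKM + 1) over the altitudes was 7.80 in heart and 8.68 in muscle. The highest level among them was 6.98 in heart and 7.20 in muscle. In lung, where the mean level of the PDK4 homolog was 6.48, 1 of the 16 genes at 2000 m and 2 of the 14 genes at 3000 m had a level at least as high.

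To set the gene beside genes of like abundance, the 200 genes nearest in mean level over all altitudes were taken in each tissue. In heart 0 of these 200 had a log2 change as low as the PDK4 homolog at 2000 m, where the lowest was -2.03. At 3000 m it was again 0 of 200, and the lowest was -1.54. The 3000 m count in heart became 1 without 600 m replicate 1 or without any 1 of the 3000 m replicates. In muscle it was 0 of 200 at 2000 m, with a lowest change of -2.89, and 0 of 200 at 3000 m, with a lowest of -2.71. These counts became 1 in muscle without the averaged 600 m sample at 2000 m and without 3000 m replicate 1 at 3000 m. The median change of the 200 genes was -0.16 and -0.02 in heart and 0.07 and 0.08 in muscle.

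In lung 2 of the 200 genes had a change as low as the PDK4 homolog at 2000 m, and 2 at 3000 m. The lowest changes among them were -3.27 and -3.95, and the medians were -0.21 and -0.32. Leaving out 600 m replicate 1 gave 1 such gene at 2000 m, leaving out 600 m replicate 2 or 3 gave 0, and leaving out 2000 m replicate 1 or 2 gave 3. At 3000 m, leaving out any 600 m replicate gave 1, leaving out 3000 m replicate 2 gave 0 and leaving out 3000 m replicate 3 gave 3.

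**Figure D2:**
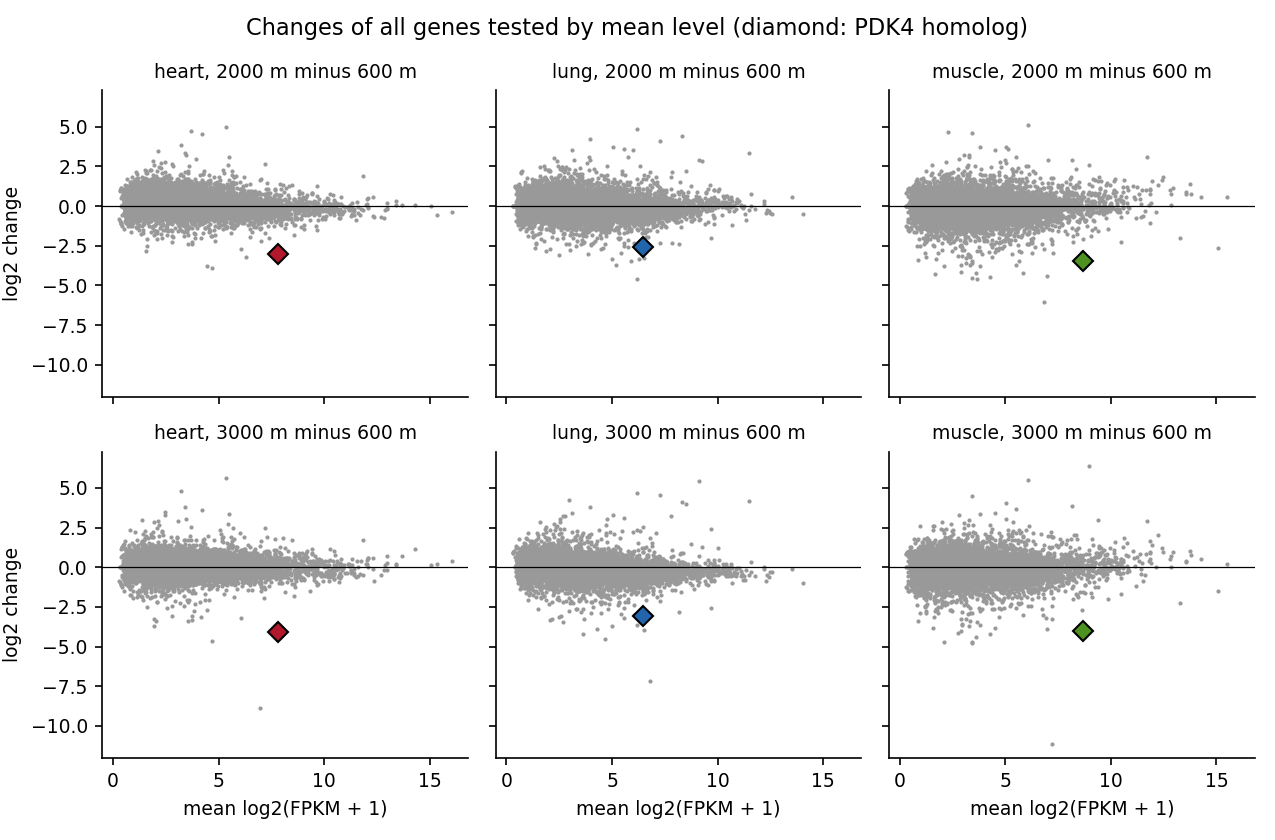
Log2 change against 600 m (y axis) by mean log2(FPKM + 1) over the altitudes (x axis) for all genes tested in each tissue, at 2000 m in the upper panels and 3000 m in the lower ones; the diamond is the PDK4 homolog. In heart and muscle the diamond lies below all genes at its level or above it, and in lung it lies among a few other genes at the lower edge.

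Taken over the 3 tissues, the smallest of the 6 differences of the PDK4 homolog was the lung change at 2000 m, -2.58. Of the 11244 genes tested in all 3 tissues, 2436 (21.7%) were lower than at 600 m in all 6 comparisons. In 52 genes all 6 log2 changes were -1 or lower, and in 8 genes, the PDK4 homolog among them, all were -2 or lower. Another 2 genes had 6 changes that were all at least as low as -2.58. Both had a mean log2(FPKM + 1) over the tissues below 4.87, against 7.65 for the PDK4 homolog. The other 7 genes with all changes at -2 or lower reached a mean level of 6.25 at most. These numbers follow from the choice of the gene and support nothing further.

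The comparison of 3000 m with 2000 m did not enter that choice and was tested with limma. In heart the log2 difference of the PDK4 homolog, 3000 m minus 2000 m, was -1.11 (SE 0.33, 95% interval -1.85 to -0.37), with an unadjusted limma p of 0.00751 and an adjusted limma p of 0.195. The call was thus not made over 12363 genes, of which limma called 1 (0.00809%), with 1787 at an unadjusted p under 0.05. The heart groups did not overlap, with 3000 m lower, which held for 16.4% of the genes tested.

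In lung the log2 difference between 3000 m and 2000 m was -0.51 (SE 0.28, 95% interval -1.14 to 0.11, limma adjusted p = 0.865). Limma called 0 of 13965 lung genes here (0%), with 807 at an unadjusted p under 0.05. In muscle the difference was -0.57 (SE 0.71, 95% interval -2.16 to 1.03, limma adjusted p = 0.847), and limma called 1 of 11920 genes (0.00839%). Without muscle replicate 3 at 3000 m the sign of the muscle difference turned, to 0.41 (SE 0.37, limma adjusted p = 0.807). No difference of the PDK4 homolog between 2000 m and 3000 m was thus called in any tissue after adjustment over all genes tested. The unadjusted 95% interval lay below 0 in heart and included 0 in lung and muscle. The intervals leave room for differences of more than 1 on the log2 scale in each tissue.

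The order of the tissues by mean level was muscle, heart and lung at each altitude. The mean FPKM in muscle was 2.41 times that in heart at 600 m, 1.81 times at 2000 m and 3.74 times at 3000 m. The mean in heart was 3.62, 2.67 and 1.74 times that in lung at the same altitudes. The tissue contrasts were tested with limma in a fit of all 9 groups over 13723 genes. Each SE in this fit thus draws on the spread of all 9 groups, muscle at 3000 m included. For heart vs lung and muscle vs lung at 3000 m the SE was 0.54. With only the compared groups fitted, it was 0.22 for heart vs lung and 0.75 for muscle vs lung.

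Muscle was higher than lung at every altitude. The log2 difference in the PDK4 homolog was 3.13 at 600 m (SE 0.61, limma adjusted p = 0.000111), 2.23 at 2000 m (SE 0.54, limma adjusted p = 0.000875) and 2.18 at 3000 m (SE 0.54, limma adjusted p = 0.00116). The size of these differences moved with the scaling. It was 3.999, 3.20 and 3.02 with median-of-ratios scaling and 2.87, 1.98 and 1.82 with scaling to the FPKM sum, in the same order, and every one of these passed. The median gene lay at -0.74, -0.87 and -0.76 in the 3 contrasts as deposited and at -0.09, -0.12 and -0.10 with median-of-ratios scaling. Such calls are the rule between these tissues, since limma called 70.0%, 77.3% and 75.0% of the genes at the 3 altitudes. Muscle lay above lung in every library at 600 m and 2000 m, as held for 16.1% and 14.6% of the genes tested. At 3000 m muscle replicate 3 (43.8 FPKM) lay within the lung range of 32.1 to 49.7 FPKM.

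Heart was higher than lung at 600 m, by 1.80 (SE 0.54, limma adjusted p = 0.00552, with 72.1% of genes called), and at 2000 m, by 1.39 (SE 0.54, limma adjusted p = 0.030, with 65.9% of genes called). The 2000 m call was lost without heart replicate 1 (difference 1.06, limma adjusted p = 0.132) and without lung replicate 1 (1.08, limma adjusted p = 0.128). At 3000 m the difference was 0.79 (SE 0.54, 95% interval -0.34 to 1.92, limma adjusted p = 0.20, with 70.2% of genes called). It too moved with the scaling, to 1.36 with median-of-ratios scaling (limma adjusted p = 0.0293) and to 0.13 with scaling to the FPKM sum (limma adjusted p = 0.826). At 600 m these scalings gave 2.54 and 1.41, and at 2000 m 1.89 and 1.07. The median gene lay at -0.69, -0.51 and -0.57 in the 3 contrasts as deposited. In FPKM all heart libraries lay above all lung libraries at each altitude, as held for 15.7%, 18.5% and 19.3% of the genes tested. At 3000 m this rested on the scaling, since as a share of the summed FPKM the heart libraries ran from 0.00661% to 0.00859% and the lung libraries from 0.00526% to 0.00909%.

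Muscle and heart were neighbours in the order, and their difference was less firm. At 600 m muscle was at 1.33 above heart (SE 0.61, 95% interval 0.07 to 2.59, limma adjusted p = 0.0988, with 34.2% of genes called), although the groups did not overlap, as in 22.1% of genes. At 2000 m the difference was 0.84 (SE 0.54, 95% interval -0.29 to 1.97, limma adjusted p = 0.217, with 45.7% called) and the groups overlapped. At 3000 m muscle was higher by 1.39 (SE 0.54, limma adjusted p = 0.0478, with 39.2% called). That call was lost without any 1 of the heart 3000 m replicates or without muscle replicate 1 or 2, with differences of 0.74 to 1.49. Without muscle replicate 3, the difference was 2.37 (SE 0.38, limma adjusted p = 6.18e-05).

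**Figure D3:**
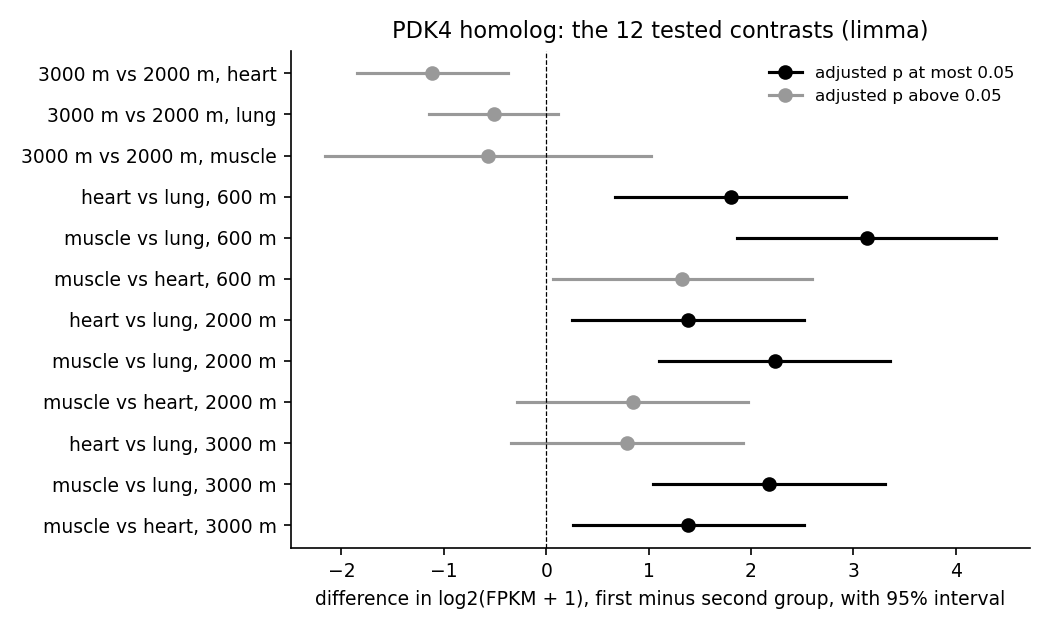
Difference in log2(FPKM + 1) of the PDK4 homolog, first group minus second, with its 95% interval from limma for the 12 tested contrasts; black marks an adjusted p of at most 0.05 over all genes tested. The muscle intervals against lung lie above 0 at every altitude, and 2 of the 3 intervals for 3000 m against 2000 m include 0.

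The spread of the PDK4 homolog within a group differed widely between groups. The SD of log2(FPKM + 1) was largest in muscle at 3000 m, at 1.73, where the highest library was 9.72 times the lowest. Of the 200 genes nearest in level, 1 had an SD as large there, and their median SD was 0.24. The library behind this spread, replicate 3, was otherwise close to replicate 1 of its group. The robust SD of the log2 ratio over genes above 50 FPKM was 0.265 between them, against 0.414 and 0.417 for the pairs with replicate 2.

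At 2000 m the SD was 0.57 in heart, 0.54 in lung and 0.61 in muscle, and 2, 16 and 14 of the 200 genes had an SD as large. In heart it was 0.54 at 600 m and 0.29 at 3000 m, reached by 14 and 43 of 200 genes. In lung it was 0.24 at 600 m and 0.34 at 3000 m, reached by 99 and 78 of 200 genes. The smallest SD, 0.09, was that of the 2 muscle samples at 600 m, which 130 of 200 genes reached.

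Replicate numbers held like positions in some tissues and altitudes and not in others. At 3000 m replicate 2 was the highest in heart, lung and muscle alike, and replicate 3 was the lowest in heart and muscle, at -0.33 and -1.97 from the group means of log2(FPKM + 1). In lung the lowest at 3000 m was replicate 1, and replicate 3 stood at -0.16. At 2000 m replicate 1 was the highest in heart and muscle and the lowest in lung. Over genes, the deviations of these libraries from their group means had an r of 0.235 for heart with lung. For muscle it was 0.082 with heart and -0.085 with lung. At 600 m replicate 2 was the highest and replicate 1 the lowest in heart and lung.

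The profile of the PDK4 homolog over the 26 samples was compared with those of 11243 other genes with a mean FPKM above 0.5 in every tissue. The median Pearson's r was -0.21, 30 genes (0.267%) had an r above 0.8 and 0 an r above 0.9. The most like profiles were those of goat_GLEAN_10015328 (r = 0.889, Spearman's rho = 0.876) and GOAT_ENSP00000303754 (r = 0.886, rho = 0.837). After centring on the tissue means, r was 0.879 and 0.885, but 206 genes then had an r above 0.8. By that measure goat_GLEAN_10015328 ranked 18th, so it was not the most like. The rank of GOAT_ENSP00000303754 by that measure was not computed. Samples of a tissue and altitude share their group, and these r values over 26 samples are a description.

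The mean FPKM of goat_GLEAN_10015328 at 600 m, 2000 m and 3000 m was 33.7, 12.3 and 11.9 in muscle. In heart it was 22.4, 6.25 and 5.82, and in lung 18.9, 5.61 and 3.72. GOAT_ENSP00000303754 averaged 79.3, 41.2 and 45.4 FPKM in muscle, 73.9, 35.4 and 40.4 in heart and 41.6, 23.5 and 22.6 in lung. Both had muscle highest and lung lowest, as the PDK4 homolog did, over a narrower range of levels.

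The most opposite profiles were those of GOAT_ENSBTAP00000005441 (r = -0.874, rho = -0.852) and GOAT_ENSBTAP00000049804 (r = -0.861, rho = -0.842). The first is expressed near the limit of the filter, with means of 0.115 to 0.564 FPKM at 600 m and 0.530 to 1.5 FPKM above it. The second averaged 71.7 FPKM in muscle at 600 m, 88.6 at 2000 m and 107 at 3000 m. In heart GOAT_ENSBTAP00000049804 averaged 81.2, 96.3 and 105 FPKM, and in lung 98.1, 117 and 117 FPKM. The table gives no symbol for any of these 4 genes.

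**Figure D4:**
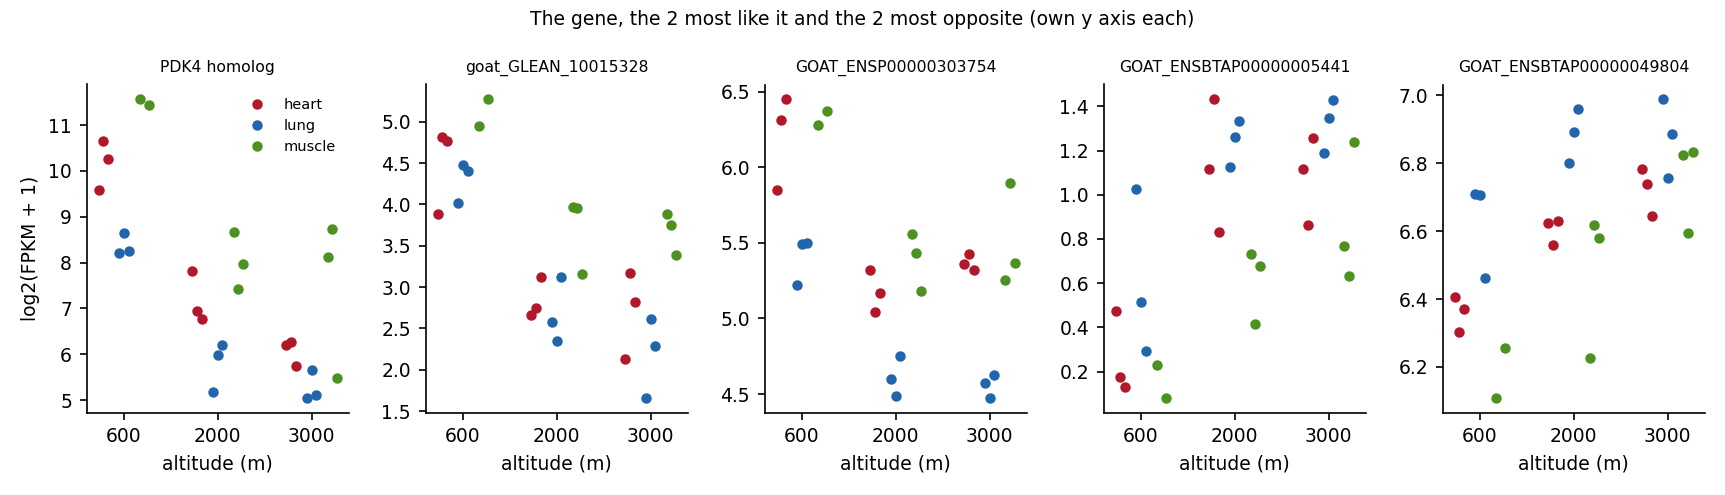
Log2(FPKM + 1) of the PDK4 homolog, the 2 genes with the highest and the 2 with the lowest Pearson's r with it, in 26 samples by altitude (x axis) and tissue (colour), each panel with its own y axis. The genes with the highest r have their highest values at 600 m in each tissue, as the PDK4 homolog does, and those with the lowest r have their lowest mean there.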

How the data were processed

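Strand-specific libraries were prepared from total RNA. Per the labels and the study's methods, the authors aligned reads with TopHat2 2.0.11 to the goat reference genome and estimated FPKM with Cufflinks 2.2.1; the methods cover the 600 m and 3000 m animals only. The deposited values are log2(FPKM + 1), 1 column per library. The log was undone and the 1 subtracted to return to FPKM. Of the gene IDs, 0 could be matched to a symbol, so the planned pathway and tissue marker lists were not used, and no sequence was at hand.

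Altitudes were compared within a tissue, and tissues in a fit of all 9 groups, with limma 3.58.1 (R 4.3.3; lmFit, eBayes with a trend) on log2(FPKM + 1). A gene was tested where its FPKM averaged above 0.5 in the samples of the fit. All tests were two-sided, p-values were adjusted over all genes by the Benjamini-Hochberg method, and the threshold was 0.05. A change on this scale understates that of low genes. Limma stands in for the study's Cuffdiff, which needs other files. The steps were tested on simulated data with independent normal noise. These had no paired, near-duplicate or outlying library, so the run does not cover those features of the data. Genes of like abundance were the 200 nearest by rank of mean log2(FPKM + 1). The genes named beside the PDK4 homolog were the 2 with the highest and the 2 with the lowest Pearson's r with it. Same-numbered heart and lung samples deviated together from their group means at each altitude (r of 0.147 to 0.450 over genes), as did muscle with heart (0.251 to 0.288) and with lung (0.158 to 0.193) at 3000 m, so the numbers pair these samples. At 2000 m r of muscle with same-numbered heart and lung ran from -0.33 to 0.08. There muscle replicate 3 had an r of 0.283 with heart replicate 2 and 0.295 with lung replicate 2. Muscle replicate 1 had an r of 0.155 with heart replicate 3 and 0.320 with lung replicate 3. The other differently numbered pairs with muscle at 2000 m ran from -0.286 to 0.092. At 600 m r with same-numbered heart and lung was 0.190 and 0.182 for muscle replicate 1 and 0.299 and 0.259 for replicate 3. For muscle replicate 2 it was -0.069 and -0.067, against 0.260 with heart replicate 1 and 0.219 with lung replicate 1. The tests reported have no pairing term, and a fit with the replicate number as a block is an alternative. For the tissue contrasts the block was the number within an altitude. For 3000 m vs 2000 m it joined the same number across altitudes, thus different animals, and is no check on pairing. In the block fits muscle replicates 1 and 2 at 600 m also stay separate. Muscle replicate 2 at 600 m and the muscle libraries at 2000 m keep numbers there that the r values above do not bear out. The gene and lists were chosen with earlier results of these data known. Python 3.11.15 with NumPy 2.4.6, pandas 2.3.3, SciPy 1.17.1 and matplotlib 3.10.9 served for the rest.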

Additional observations from a re-analysis of the deposited data

How the results depend on the processing

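The log2 changes of the PDK4 homolog against 600 m moved by less than 1 SD, pooled over both groups compared, under median-of-ratios scaling, quantile normalization, scaling to the FPKM sum (chosen after seeing the data), a pseudocount of 0.1, separate muscle replicates 1 and 2 and each left-out library. That SD is wide in muscle at 3000 m through replicate 3, and without this library the change there went from -4.05 to -3.06, more than its SE of 0.79. The first 2 scalings shifted the median of all genes by -0.14 and -0.15 in heart at 2000 m and by 0.10 and 0.11 in muscle at 2000 m, and scaling to the FPKM sum shifted it by 0.13 in heart at 2000 m and 0.19 in lung at 3000 m. In lung, 0% to 1.5% of the genes of like abundance had a change as low when a library was left out, at either altitude. For 3000 m vs 2000 m no alternative made a call, and the muscle difference ran from -1.21 to 0.41 with a library left out. Muscle vs heart at 600 m passed the threshold with quantile normalization (1.65, limma adjusted p = 0.0357), with muscle replicates 1 and 2 separate (1.35, limma adjusted p = 0.0473), with the replicate block and these replicates separate together (1.35, limma adjusted p = 0.0290) and with the compared groups alone in the fit (1.33, limma adjusted p = 0.0247). Heart vs lung at 3000 m passed with median-of-ratios scaling (1.36, limma adjusted p = 0.0293) and with the compared groups alone (0.79, limma adjusted p = 0.0149), but scaling to the FPKM sum left 0.13 (limma adjusted p = 0.826). Heart vs lung at 2000 m missed it with scaling to the FPKM sum (1.07, limma adjusted p = 0.0809) and ran from 1.06 to 1.59 with a library left out. Muscle vs heart at 3000 m missed it without the filter (1.39, limma adjusted p = 0.0728) and with the compared groups alone (1.39, limma adjusted p = 0.170), and ran from 0.74 to 2.37 with a library left out. Over its alternatives the limma adjusted p ran from 0.0247 to 0.268 for muscle vs heart at 600 m, 0.00400 to 0.132 for heart vs lung at 2000 m, 0.0149 to 0.826 for heart vs lung at 3000 m, 6.18e-05 to 0.304 for muscle vs heart at 3000 m and 0.690 to 0.954 for 3000 m vs 2000 m in muscle. For muscle vs lung at 3000 m every alternative passed, with a limma adjusted p of 3.93e-07 to 0.0313. The cause of these differences between settings was not tested. The fit with the replicate block changed no other call, those of the paired heart and lung samples and of muscle at 3000 m included. For 3000 m vs 2000 m its block joins different animals and is no check on pairing. The unknown depth allows no counting error for single values.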
